A study of Mus musculus with 56 samples.

Results

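Day-fed mouse liver was compared between the start of the food window (DRF ZT0, 4 libraries) and 4 h later (DRF ZT4, 4 libraries). These 8 libraries were chosen by feeding regimen and time alone, out of the 56 liver libraries of the series, and no measured value entered the choice.

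All animals were female C57BL/6J mice aged 9 weeks, held under 12 h of light and 12 h of darkness, and every animal had its food restricted to part of the day for 7 days. ZT is zeitgeber time, the hours since lights on at ZT0. Under daytime-restricted feeding (DRF) food was present from ZT0 to ZT12, and under nighttime-restricted feeding (NRF) from ZT12 to ZT24. Liver was taken every 4 h from ZT0 to ZT24, with 4 different animals for each regimen and time, and RNA was sequenced. Groups other than DRF ZT0 and ZT4 enter only as references: DRF ZT24 (the same clock time as ZT0, other animals), NRF ZT12 and ZT16 (the first 4 h of food at night), and NRF ZT0 and ZT4 (the same clock hours with food just taken away). No animal fed without restriction was in the series. The DRF animals at ZT0 had been without food since ZT12, so time in the light and time with food rose together from ZT0 to ZT4 and cannot be told apart within DRF.

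As background, a meal raises blood glucose, amino acids and insulin. In liver, insulin signalling through AKT keeps FOXO transcription factors out of the nucleus, which lowers genes of glucose output such as Pck1, and it raises the sterol regulatory factor SREBP1c, which drives the synthesis of fatty acid. The liver is also a secretory organ: its endoplasmic reticulum (ER) folds plasma proteins, and when the folding load grows the unfolded protein response raises ER chaperones. The hepatic clock is a loop in which BMAL1 (Arntl) and CLOCK drive their own repressors, the Per, Cry and Nr1d genes, and its phase in liver follows the time of feeding.

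Values are scaled counts: recovered whole counts per gene, scaled to library sums of 856012 to 1070852, with no correction for gene length, so that levels are compared between libraries and never between genes. Differences are on the log2(scaled count + 1) scale, which understates the change of low genes, and their standard errors (SE) come from the spread within all 14 groups of 4. Over 13745 genes with a mean of at least 1, libraries of the same group correlated at 0.983 to 0.989 in DRF ZT0 and ZT4, and libraries across ZT0 and ZT4 at 0.970 to 0.981. In each group 1 library leaned toward the other: over the genes called and changed at least 2-fold without it, DRF ZT0 replicate 2 lay at a median of 0.187 of the way to ZT4 with 84.5% of 238 genes on that side, and DRF ZT4 replicate 2 lay 0.110 of the way to ZT0 with 80.4% of 224 genes. The other 6 libraries had medians of -0.105 to 0.0347. Where a gene below is given with the value in every library, replicate 2 can be read as the second value of each group. Other genes are given by their log2 difference only. Counts are repeated without DRF ZT0 replicate 2 for several lists.

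Liver identity was checked on marker genes. The 9 measured hepatocyte markers summed to 112276 to 122463 at ZT0 and 110653 to 116467 at ZT4 (exact permutation test, two-sided, p = 0.114, adjusted over 10 marker lists 0.381). Endothelial markers summed to 737 to 889 and then 705 to 742 (exact permutation test, p = 0.0857, adjusted 0.381), and 2 of the 8, Stab2 and Ptprb, fell by 0.33 and 0.22 on the log2 scale, Ptprb losing its call without DRF ZT0 replicate 1. In whole tissue, fewer cells of a type and less RNA per cell cannot be told apart, and the part of endothelial RNA in the results below was not tested. Kupffer cell, stellate cell, cholangiocyte, lymphocyte, neutrophil and erythroid lists had overlapping sums, with exact permutation p from 0.2 to 1. Of the adipocyte list only Car3 and Cfd were measured, and both rose (summed 616 to 798 against 1145 to 1384, exact permutation p = 0.0286, the smallest this design allows, adjusted 0.286). Car3 carried nearly all of that sum, and Cfd reached at most 0.0657. Within the hepatocyte list Hnf4a rose by 0.40 and Tdo2 fell by 0.57. Of the exocrine pancreas list only Cela1 was measured (1.79 to 2.56 against 1.58 to 2.28, exact permutation p = 0.743).

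To determine how far the liver transcriptome moved in the first 4 h of the food window, ZT4 was compared with ZT0 across all genes. Of 25404 genes, 3124 changed (12.3%, limma with Benjamini-Hochberg adjustment, adjusted p under 0.05): 1626 rose (6.40%) and 1498 fell (5.90%). Of these, 218 changed at least 2-fold (0.858%), 122 upward (0.480%) and 96 downward (0.378%). Without DRF ZT0 replicate 2 the counts were 1450 and 1428. The 4 libraries of one time did not overlap the 4 of the other for 2640 higher genes (10.4%) and 2438 lower ones (9.60%), and the median difference of all genes was -0.00084. Protein-coding genes were called most often, 1391 up and 1283 down of 15100 (17.7%). Long noncoding RNA genes followed with 118 up and 118 down of 3521 (6.70%), and 5.82% of 1168 loci with no annotated gene and 2.60% of 5615 genes of other classes were called. The counts of the gene lists below are to be read beside these shares, mostly that of protein-coding genes.

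Of the 3 glycogen-targeting subunits of protein phosphatase 1 in the glycogen list, which activate glycogen synthase, Ppp1r3b and Ppp1r3c rose and Ppp1r3g, at 1.62 in DRF ZT0 replicate 4 and at most 0.0285 in the other ZT0 libraries, did not pass (-0.32, adjusted p = 0.70). Ppp1r3b went from 30.3, 81.8, 47.6 and 52.5 to 132, 126, 136 and 126 (1.36 ± 0.24, adjusted p = 4.2e-05). Ppp1r3c went from 6.95, 7.45, 6.60 and 9.25 to 19.4, 17.3, 21.2 and 28.5 (1.39 ± 0.19, adjusted p = 3.9e-07). In both Ppp1r3b and Ppp1r3c the groups stood apart. Phka2, a regulatory subunit of the kinase that activates glycogen breakdown, fell by 0.36 (adjusted p = 8.7e-08). The rest of the glycogen list did not pass, so it counted 2 up and 1 down of 13, where 17.7% of protein-coding genes were called. Of 17 genes of glycolysis and glucose uptake, 4 rose and none fell (median 0.18), where 6.40% of all genes rose. Among the 4 were the triose kinase Tkfc (0.79, with 20% of its exon bases under genes of the other strand), the enolase Eno1 (0.44) and the isomerase Gpi1 (0.42). Eno1 lost its call without DRF ZT4 replicate 4, ZT0 replicate 3 or ZT0 replicate 4.

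Genes of glucose output fell. Of 13 gluconeogenesis genes 5 fell and none rose (median -0.36 against -0.00084 for all genes), where 5.90% of all genes fell. Without DRF ZT0 replicate 2, 5 fell as well. Pck1, which encodes the cytosolic PEPCK that commits carbon to glucose synthesis (GRCm38, chr2:173153048-173159273, plus strand), measured 924, 980, 1053 and 1081 at ZT0 and 111, 160, 102 and 190 at ZT4. It fell by 2.88 ± 0.36 on the log2 scale (adjusted p = 8.7e-08), with the highest ZT4 library far under the lowest at ZT0. Sds, serine dehydratase, which feeds serine carbon into pyruvate, dropped from 119, 109, 133 and 113 to 34.3, 30.2, 27.5 and 35.2. It fell by 1.87 ± 0.21 (adjusted p = 1.3e-08), and 29.6% of its exon bases lie under a gene of the other strand, so its counts carry that doubt. The coactivators Ppargc1a and Crtc2 fell by 0.88 and 0.59, and the aminotransferase Got1 by 0.89. G6pc, whose product releases free glucose, did not pass: its values of 160, 107, 205 and 181 and then 146, 193, 150 and 281 overlapped (0.23 ± 0.34, adjusted p = 0.81).

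Insulin receptor signalling genes moved in both directions, 4 up and 8 down of 17 (median -0.03), where 6.40% of all genes rose and 5.90% fell. Without DRF ZT0 replicate 2 the list counted 3 up and 7 down. The receptor Insr went from 581, 579, 543 and 578 to 320, 346, 345 and 372, a fall of 0.72 ± 0.08 (adjusted p = 1.3e-08) with no overlap. Within the list, Sesn1 fell by 0.47, Sesn3 by 0.44 and Foxo1 by 0.44. Igfbp1, a secreted binder of insulin-like growth factors that insulin represses, read 24.8, 6.47, 21 and 28.5 at ZT0 and 1.55, 7.49, 2.56 and 3.67 at ZT4 (-2.11 ± 0.62, adjusted p = 0.016). ZT0 replicate 2 and ZT4 replicate 2 overlapped for it, and the call was lost without DRF ZT0 replicate 1, ZT0 replicate 4 or ZT4 replicate 1. Irs2, an insulin receptor substrate, fell by 0.98 with overlapping libraries and lost its call without those same libraries, while Irs1 rose by 0.57 (adjusted p = 0.00077, 30.9% of its exon bases under the other strand's genes). Akt1 rose by 0.32. Pik3r1 (0.46) and Pdk4 (1.10), a kinase that shuts off pyruvate dehydrogenase, also rose, but Pdk4 lost its call without DRF ZT0 replicate 2 or ZT0 replicate 3, and Pik3r1 without DRF ZT4 replicate 1, ZT4 replicate 4, ZT0 replicate 1 or ZT0 replicate 3. Without DRF ZT0 replicate 3 the list counted 2 up.

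**Figure D1:**
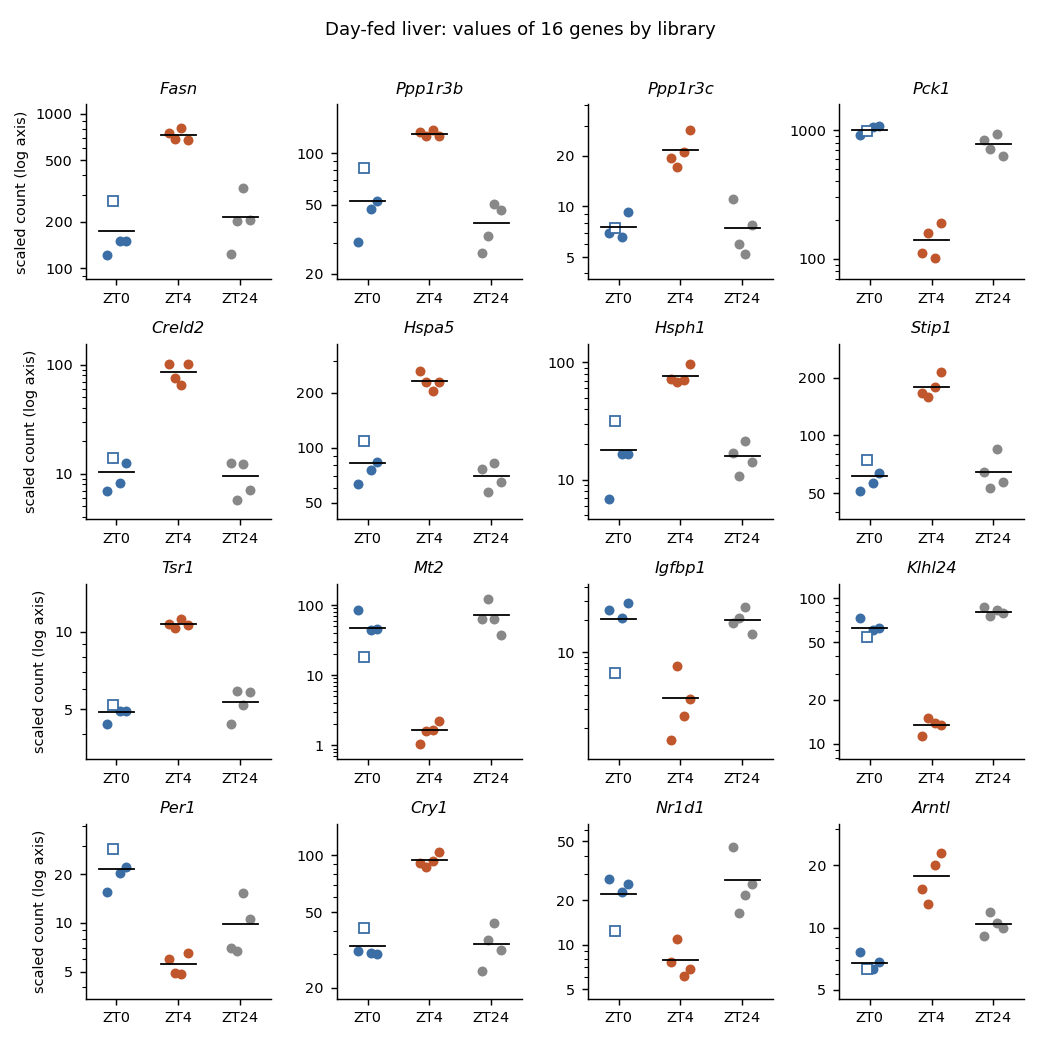
Scaled counts (log axis) of 16 genes in each DRF library at ZT0, ZT4 and ZT24, 4 libraries a time, with a bar at the mean. The open square is ZT0 replicate 2, which lies toward ZT4 in Ppp1r3b, Fasn and Igfbp1, while in Pck1 and Klhl24 the 4 libraries of ZT0 sit together and far above those of ZT4.

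Fatty acid synthesis genes rose: 8 of 19 measured members and no falls (median 0.73), and 8 again without DRF ZT0 replicate 2. The count was 5 without DRF ZT4 replicate 1 and 5 without DRF ZT0 replicate 1. Srebf1, the gene of SREBP1c, measured 146, 200, 155 and 134 at ZT0 and 425, 470, 412 and 394 at ZT4 (1.43 ± 0.20, adjusted p = 1.0e-06). Fasn, fatty acid synthase, rose from 122, 273, 150 and 150 to 748, 687, 804 and 675 (2.13 ± 0.38, adjusted p = 4.9e-05). Both sets of libraries were apart, by a wide margin for Fasn. Elovl6, which lengthens palmitate, rose from 25.8, 47.6, 35.3 and 32.1 to 141, 115, 135 and 153 (1.95 ± 0.32, adjusted p = 1.2e-05). Acly (1.02) and Acaca (1.01), which make and carboxylate acetyl-CoA, rose by less. Pnpla3 (1.48), Aacs (1.27) and Fads2 (0.33) passed as well, each losing its call without some libraries, DRF ZT4 replicate 1 and DRF ZT0 replicate 1 among them. Thrsp, a regulator of lipogenesis, did not pass (1.20, adjusted p = 0.083).

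Cholesterol synthesis showed few calls. Of 23 genes of cholesterol synthesis and uptake only Sc5d rose (0.45, adjusted p = 0.044, lost without any of 6 libraries), and the median difference was 0.15. Fatty acid oxidation and ketogenesis genes counted 1 up and 2 down of 28 (median -0.03), where 12.3% of all genes were called. A gene that did not pass is not thereby shown to be level. The 2 were its regulator Ppara (348, 361, 322 and 345 to 230, 236, 222 and 203, a fall of 0.62, adjusted p = 0.0016) and the mitochondrial gatekeeper Cpt1a (253, 234, 231 and 254 to 159, 167, 152 and 147, a fall of 0.63, adjusted p = 0.00073). Both had no overlap. The 1 that rose was Pdk4, described above with the 2 libraries without which it lost its call.

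**Figure D2:**
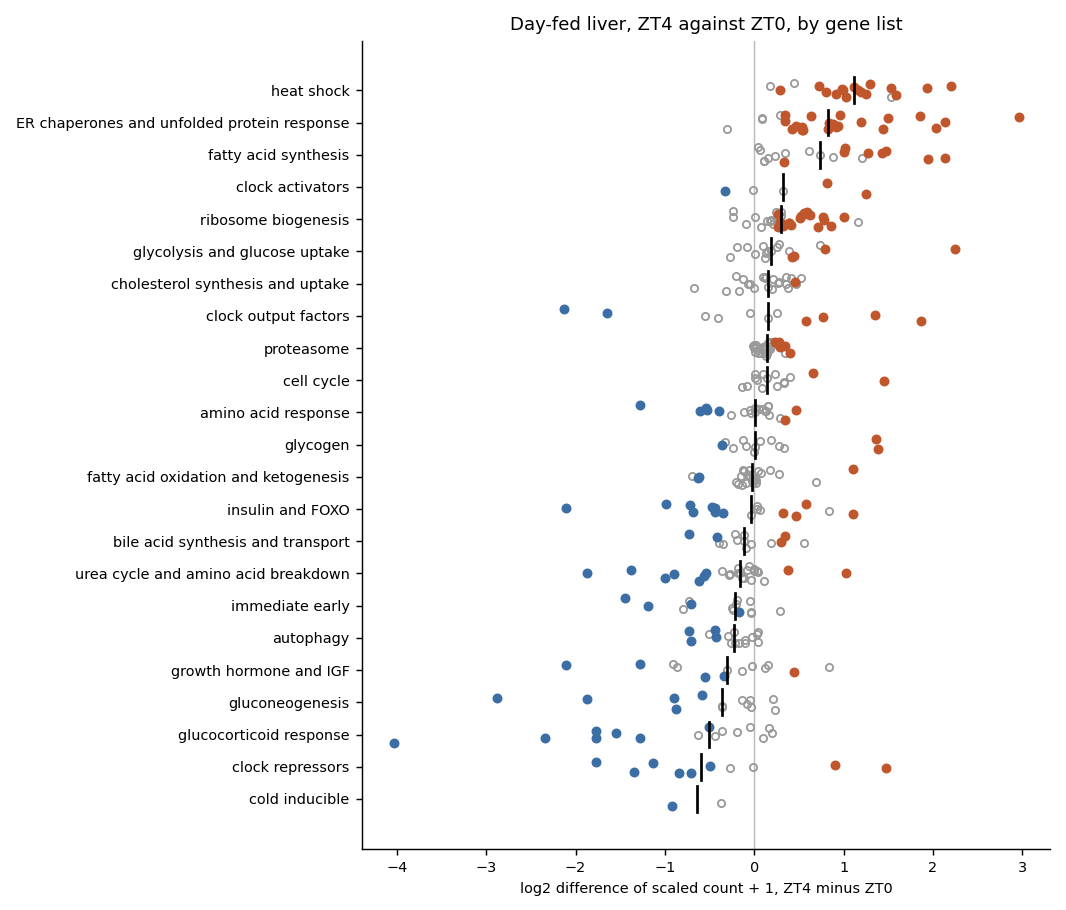
Log2 difference, ZT4 minus ZT0, of each measured member of 23 gene lists, one row per list ordered by its median (black bar). Filled points passed adjusted p under 0.05 (orange higher, blue lower) and open points did not. Heat shock (median 1.12) and ER chaperones (0.83) lie highest, with no member called lower.

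Endoplasmic reticulum chaperones rose as a block. Of 25 genes of ER folding and the unfolded protein response 21 rose and none fell (median 0.83, against 6.40% of all genes that rose and a median near 0), and 21 rose without DRF ZT0 replicate 2. Creld2, a secreted ER stress protein, showed the largest rise of all genes that met the naming rule: 6.98, 13.9, 8.2 and 12.4 at ZT0 became 102, 75.6, 65.7 and 102 at ZT4 (2.96 ± 0.33, adjusted p = 9.5e-09). Sdf2l1 went from 2.21, 3.04, 3.01 and 3.24 to 20.2, 13.8, 12.2 and 18.4 (2.13 ± 0.22, adjusted p = 2.0e-09). Manf, a secreted protein of the ER lumen, went from 22.5, 41.6, 24.6 and 35.2 to 148, 116, 104 and 139 (2.03 ± 0.23, adjusted p = 9.9e-09). None of these 3 had overlapping groups. Hspa5, the ER HSP70 chaperone BiP, went from 62.9, 109, 75.4 and 83.8 to 263, 230, 204 and 229 (1.49 ± 0.24, adjusted p = 1.4e-05). Its partner chaperone Hyou1 rose by 1.85 and its J-protein cofactors Dnajb11, Dnajb9 and Dnajc3 by 1.19, 0.91 and 0.63. The lectin chaperones Calr (0.95) and Canx (0.34) and the disulfide isomerases Pdia6 (0.93), Pdia3 (0.88), Pdia4 (0.83) and P4hb (0.34) rose too. Syvn1, the ubiquitin ligase of ER-associated degradation, rose from 10.2, 10.8, 8.82 and 12.4 to 40.4, 26.3, 19.6 and 38.8 (1.44 ± 0.24, adjusted p = 1.7e-05), and Xbp1, the transcription factor spliced by IRE1, rose by 0.54 ± 0.10 (adjusted p = 0.00020). Values of the 4 that did not pass were -0.31 for Herpud1, 0.08 for Derl3, 0.09 for the sensor Atf6 and 0.28 for Selenos. Ddit3 (CHOP), a gene of prolonged ER stress, rose by only 0.35 (2.15, 3.20, 2.60 and 2.61 to 4.33, 3.58, 3.29 and 3.31, adjusted p = 0.014), and lost its call without DRF ZT4 replicate 1 or ZT0 replicate 1.

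The 250 bases before the RefSeq start of each gene (GRCm38.p6) were then searched for the ER stress response element, here CCAAT, 9 bases of any kind and CCACG, on either strand. It was present for 35 of 27025 genes with a promoter sequence (0.13%) and for 9 of 22 genes of the ER list (40.9%). The 9 windows of the members that rose are shown because they hold the same letters. They read 5′ to 3′ on the strand of the gene, with the element in capitals. An element that reads from CGTGG to ATTGG lies on the opposite strand of the gene, and Hsp90b1 holds 2.
Creld2: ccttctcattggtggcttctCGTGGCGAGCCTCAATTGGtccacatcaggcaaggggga
Hspa5: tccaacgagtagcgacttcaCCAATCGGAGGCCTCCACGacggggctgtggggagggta
Syvn1: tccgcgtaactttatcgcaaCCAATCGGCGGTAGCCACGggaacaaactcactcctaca
Calr: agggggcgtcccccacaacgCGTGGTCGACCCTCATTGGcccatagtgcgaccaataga
Pdia6: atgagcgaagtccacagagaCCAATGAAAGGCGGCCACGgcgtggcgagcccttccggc
Hsp90b1 far: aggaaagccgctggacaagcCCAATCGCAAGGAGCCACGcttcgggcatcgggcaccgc
Hsp90b1 near: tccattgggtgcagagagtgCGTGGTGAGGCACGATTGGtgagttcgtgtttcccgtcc
Dnajc3: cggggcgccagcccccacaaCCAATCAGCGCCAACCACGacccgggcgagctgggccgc
Canx: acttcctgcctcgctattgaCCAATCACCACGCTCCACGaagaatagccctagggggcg

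These windows lie at chr15:88819500-88819558 (Creld2, plus strand), chr2:34772005-34772063 (Hspa5, plus), chr19:6046512-6046570 (Syvn1, plus), chr8:84847055-84847113 (Calr, minus) and chr12:17266471-17266529 (Pdia6, plus). The others lie at chr10:86705618-86705676 and chr10:86705513-86705571 (Hsp90b1, minus), chr14:118937807-118937865 (Dnajc3, plus) and chr11:50325780-50325838 (Canx, minus). Of the 22 tested genes with the element, 10 rose (45.5%) and 1 fell, Pan2 (-0.24), while 8.97% of the 13069 tested genes with a promoter rose and 8.13% fell. The median difference was 0.389 with the element and -0.0035 over those 13069. The tested genes with the element include the 9 members of the ER list, counted above, and all of these but Derl3 rose. Outside the list only Alg12 and Acnat2 rose, Pan2 fell and the rest did not pass. Alg12, a mannosyltransferase of the ER that shares the Creld2 element from the other side, rose by 1.04, and Acnat2 rose by 1.11. The gene that shares the Calr element from the other side did not pass (-0.0064). Derl3 holds the element too but measured 0.0758 to 0.0982 at ZT0 and 0.0973 to 0.210 at ZT4. A match of letters is a description of the sequence and shows no binding, and no hit overlapped an E-box or a heat shock element as searched below.

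**Figure D3:**
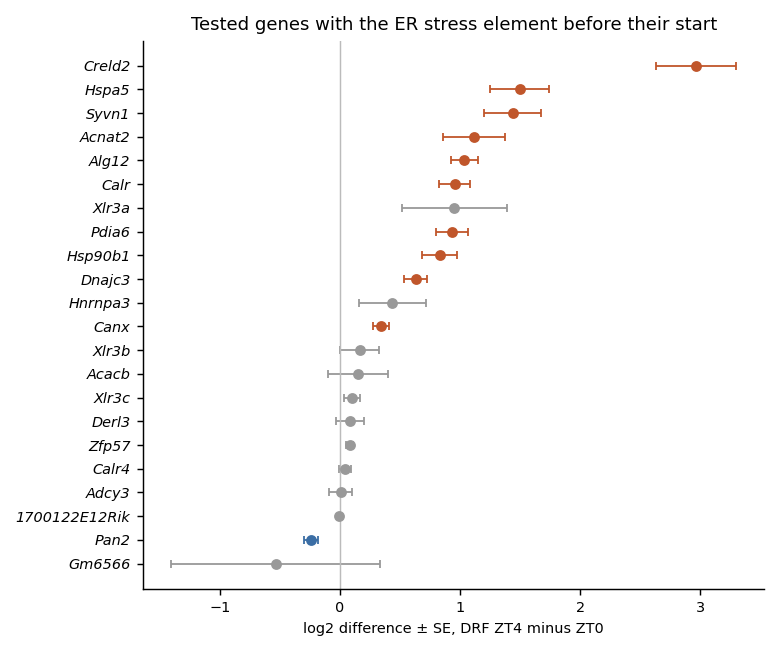
Log2 difference (± SE), ZT4 minus ZT0, of the 22 tested genes with the ER stress element before their start, ordered by difference. The 10 orange genes rose, Pan2 (blue) fell and the grey genes did not pass.

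Heat shock genes rose in the same interval: 16 of 19 rose and none fell (median 1.12), where 6.40% of all genes rose. Without DRF ZT0 replicate 2, 16 rose. Hsph1, an HSP110 that recharges HSP70, showed the largest rise, from 6.82, 31.7, 16.5 and 16.5 to 72.7, 67.5, 70.3 and 96.2 (2.20 ± 0.31, adjusted p = 1.1e-06). Hsp90aa1, the inducible HSP90, went from 22.8, 60.2, 41.0 and 39.0 to 130, 130, 145 and 204 (1.93 ± 0.49, adjusted p = 0.0046). Stip1, the co-chaperone that joins HSP70 to HSP90, went from 51.2, 74.6, 56.6 and 63.8 to 167, 158, 178 and 214 (1.53 ± 0.19, adjusted p = 1.1e-07). In all 3 the groups stood apart, with ZT0 replicate 2 the highest of its group. The constitutive Hspa8 rose by 1.29, Dnaja1 by 1.16, Hsp90ab1 by 0.99 and the co-chaperones Fkbp4, Chordc1 and Cacybp by 1.19, 1.25 and 0.92. The inducible HSP70 genes Hspa1a and Hspa1b rose by 0.80 and 1.58, with overlapping libraries (Hspa1b read 1.03, 15, 9.95 and 3.10 and then 24.8, 13.6, 13.2 and 21). They are near-identical copies whose counts may be shared, both lost their call without DRF ZT0 replicate 1, and Hspa1a also without DRF ZT0 replicate 4 or ZT4 replicate 1. The mitochondrial chaperonin Hspd1 rose by 0.29, a call lost without any of 7 libraries, and its partner Hspe1, read at 8.88, 5.83, 11.5 and 3.71 and then 40.7, 11.1, 21.9 and 23.2, did not pass (1.53 ± 0.68, adjusted p = 0.15). Cirbp, an RNA-binding protein that rises in the cold, moved oppositely, from 4.19, 2.34, 3.11 and 2.52 to 1.17, 1.5, 1.12 and 0.704 (-0.92 ± 0.19, adjusted p = 0.00052). Rbm3, the other cold-inducible gene of the list, did not pass (-0.37, adjusted p = 0.081).

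The core of a heat shock element, here TTC and GAA (or GAA and TTC) with 2 bases of any kind between them, on either strand, stood within 250 bases before the start of 8 of the 15 heat shock genes with a promoter sequence and of 14.5% of all genes. It was not particular to that list: 5 of 10 gluconeogenesis genes with a promoter sequence held it too, and no gluconeogenesis gene rose. Of all searched sites 1 overlapped an E-box. The core is short: 9.00% of the 1655 tested genes that hold it rose, close to the 8.97% of all tested genes with a promoter. Stretches of 5 of the 8 genes are shown, those without a near-identical copy that hold the core at 1 place, with the core (or overlapping cores) in capitals. Hspb1 (2 places), Hspa1a and Hspa1b hold it as well and are not shown. Hspd1 and Hspe1 share a single stretch between their divergent starts, shown on the strand of Hspe1.
Hsph1: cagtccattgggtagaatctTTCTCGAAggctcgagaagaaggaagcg
Hspe1: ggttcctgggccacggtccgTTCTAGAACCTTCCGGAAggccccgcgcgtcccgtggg
Dnaja1: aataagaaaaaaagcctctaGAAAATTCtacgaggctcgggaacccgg
Fkbp4: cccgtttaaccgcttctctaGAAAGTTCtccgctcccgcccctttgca
These lie at chr5:149636342-149636389 (Hsph1, minus strand), chr1:55088039-55088096 (Hspe1, plus), chr4:40722324-40722371 (Dnaja1, plus) and chr6:128438780-128438827 (Fkbp4, minus).

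Ribosome biogenesis genes rose by small amounts but in number. Of 36 genes 19 rose and none fell (median 0.30), where 6.40% of all genes rose, and 17 rose without DRF ZT0 replicate 2. Tsr1, a factor of small-subunit maturation, went from 4.40, 5.21, 4.94 and 4.92 to 10.8, 10.4, 11.2 and 10.7 (1.0 ± 0.11, adjusted p = 6.0e-09), though 32.3% of its exon bases lie under Srr on the other strand. Heatr1, of the same list, went from 23.2, 25, 24.7 and 23.5 to 44.3, 44.7, 44.1 and 44.4 (0.85 ± 0.13, adjusted p = 2.7e-06). The spread within each time was far smaller than the step between them. Nolc1 (0.78), Mybbp1a (0.76), Grwd1 (0.71), Nop56 (0.62), Ftsj3 (0.60) and Utp20 (0.59) followed, and Polr1b, a subunit of RNA polymerase I, rose by 0.41. Myc, a transcriptional driver of this programme, read 1.01, 0.659, 1.45 and 2.81 and then 1.18, 0.792, 0.985 and 1.09, and did not pass (-0.23 ± 0.18). Of 31 proteasome genes 5 rose by 0.23 to 0.40 (median 0.14), where 6.40% of all genes rose. The count was 3 without DRF ZT0 replicate 2, ZT0 replicate 4 or ZT4 replicate 2, and 1 without DRF ZT0 replicate 3 or ZT4 replicate 4.

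Genes that respond to glucocorticoid, the hormone that peaks before the active or feeding phase, fell: 7 of 15, with none higher (median -0.51). Over all genes 5.90% fell. The metallothioneins led. Mt2, a metal-binding protein, went from 83.6, 18.3, 43.4 and 45.9 to 1.06, 1.61, 1.69 and 2.24, the largest fall of all genes that met the naming rule (-4.04 ± 0.50, adjusted p = 8.2e-08). Of its exon bases 73.5% lie under the antisense gene Gm45774, which fell as well (8.45, 1.31, 3.23 and 5.92 to 0.130, 0.221, 0.233 and 0.175, -2.08 ± 0.39). The strand setting of the counting is not given in the sources used here, so reads of the 2 genes cannot be told apart. Mt1, its neighbour in function, went from 75.4, 24.4, 52.7 and 37.8 to 4.34, 8.13, 7.69 and 13.3 (-2.35 ± 0.44, adjusted p = 0.00013). In all 3 the groups were apart with ZT0 replicate 2 the lowest of its group. Klf9, a glucocorticoid-induced repressor, fell by 1.28 (27.2, 20.6, 21.9 and 28.3 to 8.26, 9.77, 9.25 and 10.6, adjusted p = 1.9e-08), and Zbtb16 by 1.77 (231, 175, 75.7 and 216 to 39.9, 46.9, 42.3 and 58.6, adjusted p = 0.0026). The classical targets Fkbp5 (-0.44), Tsc22d3 (0.20) and Dusp1 (-0.19) did not pass.

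Clock repressors went opposite ways, with 2 up and 6 down of 10 (median -0.60, 1 up without DRF ZT0 replicate 1). Over all genes 6.40% rose and 5.90% fell. Cry1 rose from 31.5, 41.4, 30.7 and 30.2 to 90.8, 87.3, 93.0 and 105 (1.47 ± 0.20, adjusted p = 3.7e-07), and Per2 rose by 0.90 (35.2, 74.8, 45.7 and 47.5 to 99.0, 84.7, 91.2 and 94.2, adjusted p = 0.014, lost without DRF ZT0 replicate 1). Per1 fell from 15.5, 28.9, 20.3 and 22.3 to 6.02, 4.89, 4.82 and 6.53 (-1.77 ± 0.27, adjusted p = 4.5e-06). In these 3 genes no ZT4 library lay within the ZT0 range. The heme receptors Nr1d1 and Nr1d2, which repress Arntl, fell by 1.35 and 1.13, Per3 by 0.84, and the repressors Ciart and Bhlhe41 by 0.71 and 0.49. Arntl itself rose from 7.65, 6.29, 6.32 and 6.82 to 15.3, 13, 19.96 and 22.8 (1.24 ± 0.19, adjusted p = 3.2e-06), and Rora, of its ROR activators, fell by 0.33, while Clock did not pass (0.32). Of the 5 clock activators 2 rose and 1 fell. Of 11 clock output factors 4 rose, 2 fell and 5 did not pass (median 0.15). Among them Dbp, the PAR bZIP activator, fell from 35.2, 42.1, 39.8 and 38.5 to 10.9, 17, 10.4 and 9.49 (-1.65 ± 0.21, adjusted p = 1.6e-07), and its antagonist Nfil3 rose from 11.8, 8.24, 8.96 and 11.6 to 26.4, 25.5, 26.9 and 30.1 (1.35 ± 0.16, adjusted p = 4.4e-08). Tfrc, the transferrin receptor, rose by 1.86.

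An E-box, CACGTG, the site that CLOCK and BMAL1 bind, was found before the start of 4 of 8 clock repressors with a promoter sequence and of 6.86% of all genes. The stretches are shown because these 4 genes, which hold the same letters, went in opposite directions: Cry1 rose while Per1, Ciart and Bhlhe41 fell.
Cry1: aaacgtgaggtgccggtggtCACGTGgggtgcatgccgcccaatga
Per1: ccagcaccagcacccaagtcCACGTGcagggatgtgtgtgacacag
Ciart: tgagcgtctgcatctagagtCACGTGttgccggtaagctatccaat
Bhlhe41: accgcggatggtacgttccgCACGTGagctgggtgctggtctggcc
Ciart holds 3 E-boxes in its window, of which the one farthest from the start is shown, and the other 3 genes hold 1 each. The stretches lie at chr10:85185089-85185134 (Cry1, minus strand), chr11:69098763-69098808 (Per1, plus), chr3:95882319-95882364 (Ciart, minus) and chr6:145865548-145865593 (Bhlhe41, minus).

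The counts of the remaining lists are read beside the 6.40% of all genes that rose and the 5.90% that fell. Most of their members are expressed genes, among which calls are more frequent. Tested alone, the 13745 genes with a mean of at least 1 gave 1574 up and 1429 down, and 17.7% of protein-coding genes were called. Small counts are therefore not read as results about a list. Of 25 genes of the urea cycle and amino acid breakdown 7 fell and 2 rose (median -0.16). The amino acid transporters Slc38a4 (406, 332, 394 and 354 to 188, 203, 165 and 186, a fall of 1.0, adjusted p = 8.7e-09) and Slc7a2 (a fall of 1.38) led with Sds, and Arg1, which releases urea, fell by 0.54. Ddc, which decarboxylates aromatic amino acids, rose by 1.02. Of 21 genes of the amino acid response 5 fell and 2 rose (median 0.01). Trib3, a pseudokinase induced by ATF4, fell by 1.27 (5.82, 3.03, 3.58 and 4.71 to 1.41, 1.33, 0.815 and 1.05, adjusted p = 0.00051), and the list counted 3 down without DRF ZT0 replicate 1, ZT4 replicate 2 or ZT4 replicate 3, whereas Atf4 (0.01) and Asns (0.15) did not pass. Of 16 autophagy genes 4 fell and none rose (median -0.22): the initiating kinase Ulk1 by 0.71, Wipi1 by 0.73, Rb1cc1 by 0.44 and Atg14 by 0.43. Of 14 bile acid genes 2 rose and 2 fell (median -0.12), the sterol exporters Abcg8 (-0.73) and Abcg5 (-0.42, lost without any of 7 libraries) down and Abca1 (0.35) and Nr1h3 (0.30) up, while Cyp7a1, the rate-limiting enzyme of bile acid synthesis, did not pass (0.56, adjusted p = 0.45). Of 13 genes of growth hormone and IGF signalling 4 fell and 1 rose (median -0.31), and 1 fell without DRF ZT0 replicate 4. Igf1 itself read 675 to 797 at ZT0 and 747 to 874 at ZT4. Of 14 immediate early genes 4 fell (median -0.22), with Junb the largest (-1.44, lost without DRF ZT0 replicate 1), and 2 fell without DRF ZT4 replicate 4, ZT0 replicate 3 or ZT0 replicate 4. Of 15 cell cycle genes 2 rose, Ccnd1 and Gadd45a, and the other 13 did not pass (median 0.14), where 6.40% of all genes rose.

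By the rule set for single genes, the largest rises beyond those above were Slc41a2 (2.34), a magnesium transporter, Tubb2a (2.23), a tubulin whose counts near-identical copies may share, Serp1 (2.10), an ER stress protein, and Atp2b2 (1.95), a plasma membrane calcium pump. Serp1 read 57.7, 76.7, 62.3 and 214 and then 398, 373, 342 and 407, and its call (adjusted p = 0.035) was lost without any of 7 libraries. The largest falls beyond those above were Klhl24 (2.14), Rgs16 (2.13), Tcp11l2 (2.03), Upp2 (2.02), Gpcpd1 (1.95), Lpin1 (1.94) and Fbxo21 (1.94), each given as the size of the fall. Klhl24, an adaptor of a ubiquitin ligase, read 73.6, 54.3, 60.6 and 62.0 and then 11.3, 15, 13.9 and 13.4, with adjusted p = 9.7e-12. Lpin1, a phosphatidate phosphatase that also coactivates fasting genes, read 49.5, 63.7, 49.1 and 63.9 and then 12.7, 13.9, 12.3 and 16.8. The 5 long noncoding RNA genes with the largest difference were Rapgef4os1 (-2.09), Gm45774 (-2.08), Gm35986 (1.73), Gm14051 (-1.65) and Gm14097 (-1.64). All 5 are annotated antisense to another gene.

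To see whether the baseline mattered, ZT4 was also set against DRF ZT24, animals killed at the clock time of ZT0 on the next day. ZT24 shares the ZT4 libraries with the comparison above, so the values stand side by side and are no independent support. Against ZT24, 5784 genes differed (22.8%), 3096 higher (12.2%) and 2688 lower (10.6%), but with the values as deposited the split was 1594 higher and 4216 lower. ZT24 differed from ZT0 in 780 (3.07%), 366 higher (1.44%) and 414 lower (1.63%), or 1590 higher and 274 lower with the values as deposited. That count of 780 was 228 without DRF ZT0 replicate 3, 418 to 494 without DRF ZT0 replicate 2, ZT0 replicate 4 or DRF ZT24 replicate 1, 3 or 4, and 673 to 823 without the others. The ZT24 libraries stand apart in how values run with exon length (0.0158 to 0.0536 log2 per doubling of length, against -0.0367 to -0.00872 at ZT0 and -0.0480 to -0.0196 at ZT4), and the part of this in the ZT24 results was not tested. Against ZT24, Fasn differed by 1.83, Pck1 by -2.49, Creld2 by 3.11, Hsph1 by 2.24 and Mt2 by -4.66, with 22 of 25 ER genes, 18 of 19 heat shock genes and 25 of 36 ribosome biogenesis genes higher. Other lists counted differently against ZT24. Cholesterol synthesis and uptake counted 11 higher and 1 lower of 23, the proteasome 15 higher of 31, and immediate early genes 4 higher and none lower of 14. The glucocorticoid list counted 2 higher and 5 lower of 15 and the bile acid list 1 higher and 4 lower of 14. Of the cell markers, 4 of 9 Kupffer cell markers were higher and 4 of 9 hepatocyte markers lower at ZT4 than at ZT24, and their part in the ZT24 results was not tested. The immediate early genes were high at ZT0 itself: 6 of 14 were lower at ZT24 than at ZT0. Jun measured 4.13, 5.54, 12.3 and 6.23 at ZT0 and 4.27, 3.36, 3.57 and 3.32 at ZT4, and its mean was 1.35 ± 0.244 (SD, n = 4) at ZT24, so that ZT4 was lower than ZT0 by 0.71 and higher than ZT24 by 0.98. Its ZT0 and ZT4 libraries overlapped, and the call against ZT0 was lost without DRF ZT4 replicate 2, 3 or 4 or ZT0 replicate 3 or 4. Nr4a1, an orphan receptor of the immediate early class, fell by 1.19 against ZT0 and differed by 0.10 from ZT24, and Errfi1, an inhibitor of EGF receptors, fell by 1.55 against ZT0 and differed by -0.34 (not passing) from ZT24. Per1 stood at 21.7 ± 5.56 at ZT0 and 9.90 ± 4.05 at ZT24, and its fall of 0.67 against ZT24 missed the threshold (adjusted p = 0.069).

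**Figure D4:**
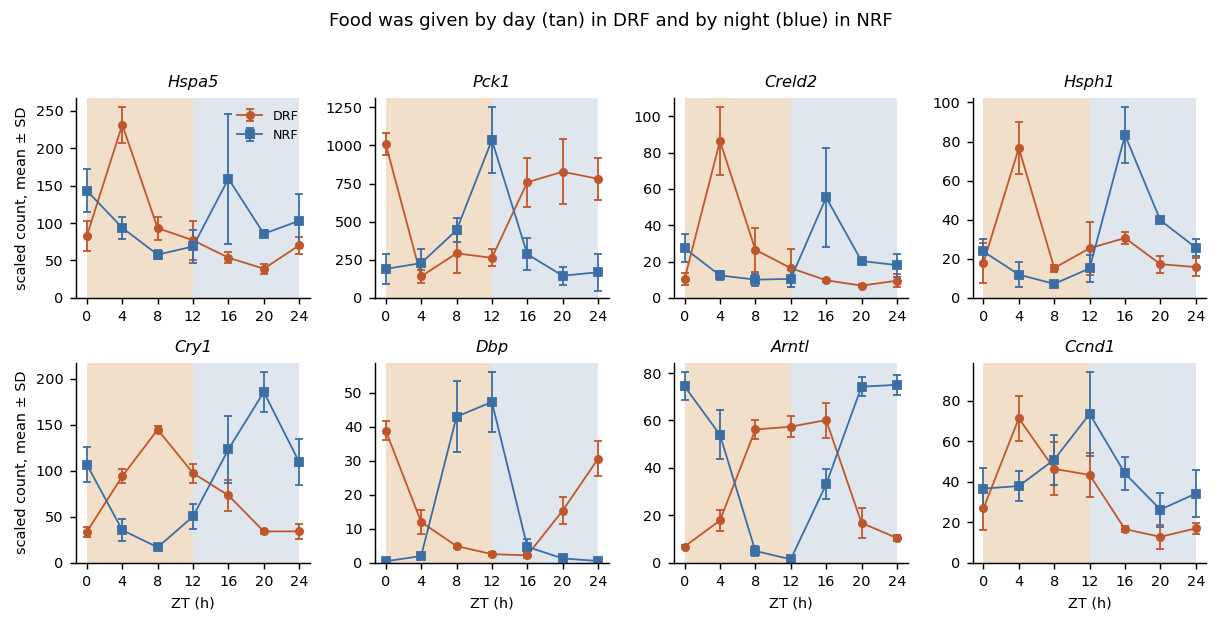
Scaled count (mean ± SD, n = 4) of 8 genes over ZT in DRF (orange circles) and NRF (blue squares). The food window is tan for DRF and blue for NRF. Creld2 and Hsph1 are highest 4 h into the food window under each regimen, at ZT4 in DRF and ZT16 in NRF, and Ccnd1 is highest at ZT4 in DRF and at ZT12 in NRF.

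ZT8, in the middle of the food window, was compared with ZT4. This comparison shares the ZT4 libraries with that of ZT4 and ZT0, so that a chance deviation of ZT4 moves both in opposite directions, and the values stand side by side only. Between ZT4 and ZT8, 2016 genes changed (7.94%), 898 upward (3.53%) and 1118 downward (4.40%). Creld2 fell by 1.75, Hspa5 by 1.31 and Hsph1 by 2.25 on the log2 scale, each of them passing. Arntl went on rising, by 1.64.

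To determine whether these changes followed food in the light only, the first 4 h of food by day were compared with the first 4 h of food by night (NRF ZT16 against ZT12), which share no library. At night 4200 genes changed (16.5%), 1686 up (6.64%) and 2514 down (9.90%). Of the 1626 genes that rose by day, 773 also rose by night (47.5% of the day list and 45.8% of the night list) and 10 fell. Of the 1498 that fell by day, 886 fell by night (59.1% and 35.2%) and 2 rose. Signs were alike for 88.4% and 92.7% of the 2 day lists, and the share of like signs over all genes was not computed. By night 17 of 25 ER genes and 17 of 19 heat shock genes rose, with 1 ER gene lower, and 5 of 19 fatty acid synthesis genes rose. Hsph1 rose by 2.48 at night and 2.20 by day, Creld2 by 2.30 and 2.96, and Pck1 fell by 1.89 and 2.88. The test of the difference between the onsets passed for none of these 3 (differences of -0.28, 0.67 and -0.99 in that order, adjusted p from 0.39 to 0.84).

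The difference between the onsets itself passed for 195 genes (0.768%), 140 with a higher value for the day (0.551%) and 55 with a lower (0.217%). The balance depended on the scaling: it was 31 higher and 51 lower with the values as deposited, 101 and 66 with median-of-ratios scaling, and 130 and 93 with the length trend removed. The count was 64 to 103 without DRF ZT4 replicate 1 or 2, DRF ZT0 replicate 1, NRF ZT16 replicate 1 or NRF ZT12 replicate 3, and 359 without NRF ZT16 replicate 4. Of the 17 genes named for this difference, Arntl and Acmsd kept their call under every alternative tried. Ccnd1, Clock, Ddc and Slc36a1 lost it only in the fit on the libraries compared, and Dbp there and with the values as deposited. The other 10 lost it in that fit and without at least 5 of the 16 libraries, each left out in turn. Of the clock lists, 2 of 5 activators were lower, none of 10 repressors differed and 1 of 11 output factors was higher. Arntl rose by 1.24 by day and by 3.83 by night, a difference of -2.58 ± 0.27 (adjusted p = 4.3e-08): at the day onset it started from 6.77 ± 0.636 and at the night onset from 1.38 ± 0.209. Clock rose by 1.62 at night and did not pass by day (difference -1.30 ± 0.22, adjusted p = 0.0022). Dbp fell less by day than by night (-1.65 against -3.16, difference 1.51 ± 0.30, adjusted p = 0.0091). Ccnd1, cyclin D1, which carries cells into the cycle, showed the largest positive difference of the genes the rule names. It read 14.2, 27.3, 25.8 and 39.6 at DRF ZT0 and 74.0, 75.0, 81.1 and 55.3 at ZT4 (1.45 ± 0.28, adjusted p = 0.00017). At night it went from 73.5 ± 20.8 to 44.1 ± 8.02 (-0.70, adjusted p = 0.079), a difference of 2.16 ± 0.39 (adjusted p = 0.0045), and 23.4% of its exon bases lie under a gene of the other strand. Nrep (1.41 by day, -0.29 by night) and Slc36a1, a lysosomal amino acid transporter (1.23 and 0.01), followed. Slc36a1 was low in 3 of the 4 ZT0 libraries (15.4, 13.7 and 16.7, with 40.9 in replicate 2), and DRF ZT24 averaged 41.0 ± 3.70, so its rise was not seen against ZT24 (0.20, adjusted p = 0.38). Of the ER list only Xbp1 differed (0.54 by day and -0.05 by night, difference 0.58 ± 0.15, adjusted p = 0.043, lost without any of 11 libraries), and of the heat shock list only Hspa4l (1.12 and 1.77, difference -0.66 ± 0.16, adjusted p = 0.039, lost without any of 9). In ribosome biogenesis Tsr1, Wdr43 and Rrp9 rose more, or fell less, by day (differences 0.61, 0.51 and 0.78), calls lost without any of 14, 9 and 5 libraries. On the lower side the rule also names Cyp2b10, Zfp973 and Acmsd, and on the higher side Clec2h. Of these, Cyp2b10, Acmsd and Clec2h moved by 0.21, 0.16 and -0.17 by day, none passing, and by 2.43, 1.77 and -1.66 by night. Zfp973 fell by 1.20 by day, with overlapping libraries, and lost that call without DRF ZT4 replicate 1 or 2.

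**Figure D5:**
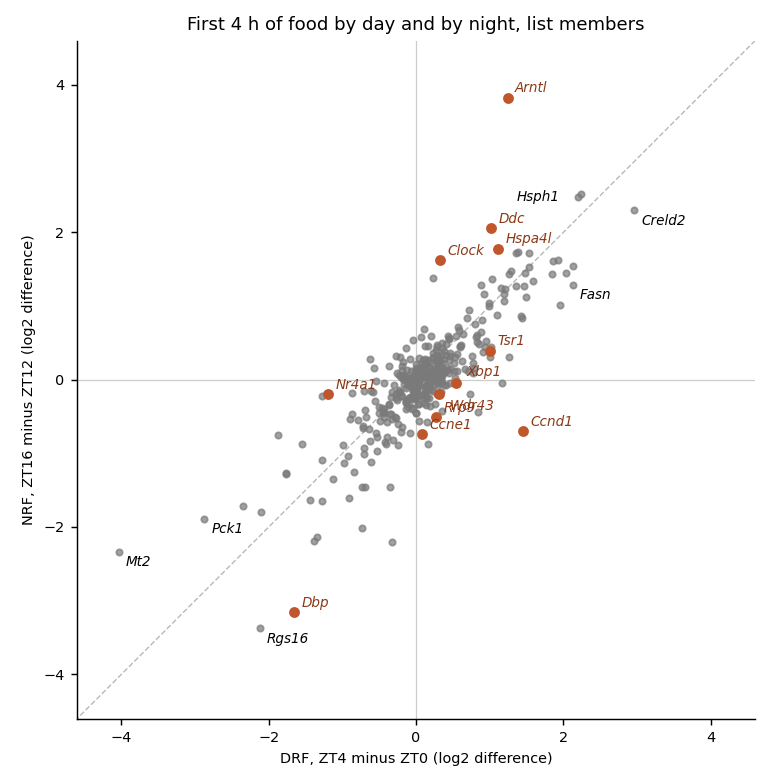
Log2 difference over the first 4 h of food by night (NRF, vertical) against by day (DRF, horizontal) for measured list members, and the dashed line marks equal change. Orange genes passed the test of the difference, with Arntl (1.24 by day, 3.83 by night) farthest above the line and Ccnd1 (1.45 and -0.70) below it.

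The same clock hours without food gave fewer calls. From ZT0 to ZT4 in NRF, when food had just been taken away, 690 genes changed (2.72%), 259 up (1.02%) and 431 down (1.70%). Of the 1626 genes that rose in DRF, 303 fell in NRF (18.6%, which is 70.3% of the NRF falls) and 1 rose. Of the 1498 that fell in DRF, 153 rose in NRF (10.2%, 59.1% of the NRF rises) and 1 fell. Tested directly, the DRF change exceeded or undercut the NRF change for 3850 genes (15.2%), 2121 higher (8.35%) and 1729 lower (6.81%), among them 21 of 25 ER genes, 17 of 19 heat shock genes, 20 of 36 ribosome biogenesis genes and 10 of 19 fatty acid synthesis genes, all higher in DRF. The largest of these differences by the rule were Creld2, Tsku, Hsph1, Sdf2l1 and Tubb2a on the higher side. Tsku, a secreted liver protein, rose by 1.35 in DRF (75.2, 167, 118 and 96.8 to 276, 266, 272 and 313) and fell by 2.06 in NRF. Its DRF call (adjusted p = 0.035) was lost without any of 7 libraries. On the lower side Mt2 fell by 4.04 in DRF and rose by 2.44 in NRF, Nr1d1 fell by 1.35 and rose by 3.74, Nr1d2 fell by 1.13 and rose by 2.35, and Rgs16 fell by 2.13 and rose by 2.07. The rule also names the mitochondrial gene mt-Co3, which rested on single libraries (14.9 in DRF ZT0 replicate 2 and 0.0328 to 0.0679 in the other 7 libraries) and did not pass in DRF.

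Circular RNAs, counted from back-splice junctions, gave no call. Of 2352 listed circles 1131 were above 0 in at least 28 of 56 libraries and were tested. None passed by limma (0%), 58 had an unadjusted p under 0.05, and the smallest adjusted p was 0.234. The 8 libraries detected 1055 to 1433 circles each. A circle missed in a library reads 0. Some circles were at 0 in all 4 libraries of one time and at 7.01 or more in all 4 of the other, and did not pass. The test thus rests largely on detection, and the lack of calls does not show equal levels.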

How the data were processed

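Total RNA of mouse liver was sequenced as strand-specific, ribosome-depleted paired-end libraries. The labels also name the molecule polyA RNA. Per the labels, the submitters' processing notes name CASAVA 1.8, featureCounts 1.5.0-p3 and the builds mm10 and GRCm38.p6. Whether counting used strand is not given in the sources used here.

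The authors deposited gene values named TPM, treated here as a score because they are not linear in reads: value times exon length (GENCODE vM21, matched for 24247 of 24268 Ensembl identifiers) follows a logarithm of whole counts. From this, counts were recovered for 25404 of 25415 genes, with totals in the DRF ZT0 and ZT4 libraries far above the depth the study gives, so no counting intervals are given. The authors deposited circular RNA values on a log2 scale of scaled junction reads. The transcript table was not used.

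Scaled counts were compared as log2(scaled count + 1) with limma 3.58.1 (R 4.3.3, trend), 14 group means over 56 libraries, two-sided, Benjamini-Hochberg over all genes, threshold 0.05. Each library is 1 animal. Marker sums were compared by exact permutation. Python 3.11.15, NumPy 2.4.6, pandas 2.3.3, SciPy 1.17.1 and matplotlib 3.10.9 were used. On simulated data for ZT4 against ZT0 (25404 genes), 92% of 2-fold changes and 58% of changes of 0.585 on the log2 scale were recovered, and 6.25% of the calls were false. The simulation used normal noise and changed far fewer genes than were called here, all with a mean of at least 1. Its rates therefore need not hold for the data.

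The gene lists and comparisons were chosen with earlier results of these data known. Besides list members, the 10 largest rises and 10 largest falls of protein-coding genes (adjusted p under 0.05, mean of at least 1, libraries not overlapping), the 5 long noncoding RNAs with the largest differences by the same criteria, and the 5 protein-coding genes at each end of both differences between regimens were named. Alg12, Acnat2 and Pan2 were named after their values were seen. Results for some genes are not reported here. Alternatives were another pseudocount, a filter on low values, median-of-ratios scaling, the values as deposited, removal of the length trend, only the libraries compared, a replicate block and leaving out each replicate.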

Additional observations from a re-analysis of the deposited data

Results flagged for a closer look

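Among 330 groups of 4 libraries, looked at for the named genes, 19 held a library whose gap to its nearest neighbour took up more of the group's range than Dixon's 95% limit for 4 values allows. Chance picks out about 1 in 20 groups. These were Abcg5 (DRF ZT4 replicate 2, highest at 207, the nearest library 150), Atf4 (DRF ZT0 replicate 1, lowest at 6.9, the nearest library 11.7), Chordc1 (DRF ZT4 replicate 4, highest at 25.4, the nearest library 20.7), Cry1 (DRF ZT0 replicate 2, highest at 41.4, the nearest library 31.5), Dnaja1 (DRF ZT4 replicate 4, highest at 180, the nearest library 152) and Errfi1 (DRF ZT0 replicate 1, lowest at 127, the nearest library 229). Others were Errfi1 (DRF ZT4 replicate 4, highest at 76, the nearest library 64.9), Insr (DRF ZT0 replicate 3, lowest at 543, the nearest library 578), Irs1 (DRF ZT0 replicate 1, lowest at 58.5, the nearest library 79.9), Nr4a1 (DRF ZT4 replicate 2, highest at 0.775, the nearest library 0.525), Nrep (DRF ZT4 replicate 2, lowest at 25.6, the nearest library 37.4) and Pan2 (DRF ZT0 replicate 1, highest at 6.89, the nearest library 6.41). The rest were Pnpla3 (DRF ZT4 replicate 1, highest at 9.43, the nearest library 6.89), Ppp1r3g (DRF ZT0 replicate 4, highest at 1.62, the nearest library 0.0285), Rgs16 (DRF ZT4 replicate 2, highest at 4.78, the nearest library 1.54), Selenos (DRF ZT4 replicate 2, highest at 52.2, the nearest library 43.7), Serp1 (DRF ZT0 replicate 4, highest at 214, the nearest library 76.7), Slc36a1 (DRF ZT0 replicate 2, highest at 40.9, the nearest library 16.7) and mt-Co3 (DRF ZT0 replicate 2, highest at 14.9, the nearest library 0.0544).

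The change over the first 4 h of food differed between day and night in 17 named genes, by limma's test of the difference over all genes. It was lower by day in Arntl (-2.58, adjusted p = 4.3e-08), Cyp2b10 (-2.22, adjusted p = 0.031), Zfp973 (-1.88, adjusted p = 0.036), Acmsd (-1.60, adjusted p = 0.015), Clock (-1.30, adjusted p = 0.0022), Ddc (-1.04, adjusted p = 0.008), Nr4a1 (-0.99, adjusted p = 0.03) and Hspa4l (-0.66, adjusted p = 0.039). It was higher by day in Ccnd1 (2.16, adjusted p = 0.0045), Nrep (1.71, adjusted p = 0.039), Dbp (1.51, adjusted p = 0.0091), Clec2h (1.49, adjusted p = 0.042), Slc36a1 (1.22, adjusted p = 0.0038), Rrp9 (0.78, adjusted p = 0.024), Tsr1 (0.61, adjusted p = 0.044), Xbp1 (0.58, adjusted p = 0.043) and Wdr43 (0.51, adjusted p = 0.038).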

How the results depend on the processing

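For ZT4 against ZT0, between 2237 (values as deposited) and 3565 genes (only the 8 libraries compared) were called under the alternatives, against 3124, and 2415 to 2878 without 1 replicate. The replicate numbers did not pair the samples (correlations of same-numbered libraries from -0.0661 to 0.0561), and with the replicate block 3121 genes were called. ZT4 against ZT24 gave 5810 genes with the values as deposited (1594 higher, 4216 lower). ZT24 against ZT0 gave 1864 genes with the values as deposited (1590 higher, 274 lower), 294 with only the libraries compared and 228 to 823 without 1 replicate, against 780. The difference between the onsets gave 82 (31 higher, 51 lower), 18 and 64 to 359 in the same order, against 195. Circular RNAs gave 0 to 1 call without 1 replicate, against 0. The cause of these shifts was not tested. Of the 2630 alternative values of the 165 named genes for ZT4 against ZT0, 2487 kept direction and side of the threshold, 128 lost the call, 8 gained it and 7 changed sign, none of them called. On the log2 scale, Atf4 was at -0.0233 with the length trend removed, at -0.168 without DRF ZT0 replicate 1 and at -0.0451 without DRF ZT4 replicate 1, over a range up to 0.0942. Cela1 ran from -0.0966 to 0.0184 without DRF ZT4 replicate 4 and 0.0343 without DRF ZT0 replicate 3. Without 1 replicate, Ppp1r3g ran from -0.444 to 0.0155, the latter without DRF ZT0 replicate 4, and mt-Co3 ran from -1.30 to 0.0160, the latter without DRF ZT0 replicate 2. Of 407 alternative values of the 17 onset differences, 130 lost the call. Recovered counts exceed the reads sequenced, so depth limits cannot be stated for genes.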
